A study of Mus musculus with 4 samples.

Results

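Platelet-derived growth factors (PDGFs) and their receptors were followed in Sca-1 cells of failing and healthy mouse hearts. The family was taken as 6 genes, the ligand genes Pdgfa, Pdgfb, Pdgfc and Pdgfd and the receptor genes Pdgfra and Pdgfrb, with every probe set that the array annotation gives to 1 of them alone. These are 6 of 18193 genes and 14 of 45037 probe sets, and 10 of the 14 were bright enough to be tested. Sca-1 cells are heart cells with the surface protein Sca-1, which is used to enrich resident progenitor cells, and they were isolated with magnetic beads and lysed without culture. The Cyc cells came from double-transgenic FVB mice of 6 weeks with heart failure, in which CyclinT1 and Gαq are overexpressed from the αMHC promoter, a promoter of cardiomyocytes. The Wt cells came from wildtype littermates of the same strain and age, which carry neither transgene. There were 2 pools per genotype, each of cells from 2 to 3 hearts of either sex. Cells were isolated in 2 independent experiments, and the replicate number was read as the experiment, so that each experiment holds 1 pool of either genotype.

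The 4 ligand genes encode chains that join in pairs and bind a pair of receptor tyrosine kinases, PDGFRα and PDGFRβ. PDGF-A and PDGF-B are cut to their active form inside the cell that makes them, while PDGF-C and PDGF-D are secreted with a CUB domain that proteases remove outside the cell. PDGFRα marks fibroblasts and mesenchymal progenitors of the heart, and PDGFRβ marks pericytes and vascular smooth muscle. Endothelial cells release PDGF-B, which attracts PDGFRβ-bearing mural cells to new vessels.

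Intensities are those of Affymetrix Mouse 430 2.0 arrays on a linear scale, and differences are on a log2 scale after 16 was added. An intensity of 50 was taken as the edge of detection, and a probe set was tested when at least 2 of the 4 pools reached it. The median intensity of the 20680 tested probe sets was 197.6 and 280.5 in the Cyc pools of experiments 1 and 2, and 219.4 and 260.7 in the Wt pools. The median difference between Cyc and Wt cells was -0.10 in experiment 1 and 0.06 in experiment 2. Ly6a, the gene of Sca-1, differed by 0.03 between Cyc and Wt cells (standard error 0.27), with intensities of at least 10562 in all pools. Transcripts of airway epithelium differed widely between pools. The summed intensity of 8 airway markers was 777 and 23505 in the Cyc pools of experiments 1 and 2, and 4142 and 476 in the Wt pools.

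Across the family, Pdgfa and Pdgfrb were brighter and Pdgfb and Pdgfd dimmer in Cyc than in Wt cells of both experiments, while Pdgfra differed in direction between the experiments and Pdgfc lay near background. In these bulk pools, fewer cells of a type and less RNA per cell cannot be told apart. The thresholds were those of the study, a 2-fold difference together with an unadjusted p under 0.05, and none of the 10 tested probe sets passed them in limma without a block. None of them reached that p without a block, in limma, where all had an adjusted p of 1, or in a plain 2-group t test. The study itself used the Rosetta Resolver error model, which was not run here. Over all tested probe sets, 0.735% were past the thresholds as higher and 0.116% as lower in Cyc cells. With the experiment as a block, 1 of the 10, of Pdgfrb, passed as higher (0.924% of all tested), which it did not with intensities under 50 set to 50, and 6 had an unadjusted p under 0.05 (6.98% of all tested), the pairs of Pdgfa, Pdgfb and Pdgfrb. Of the 10, 4 were higher in Cyc cells in both experiments and 4 were lower, against 26.1% and 29.1% of all tested probe sets. The 2 probe sets of Pdgfa had both Cyc pools above the Wt pools and the 2 of Pdgfb had both below, against 15.1% and 8.23% of all tested. All tests rest on the spread between these 4 pools, which may be technical in part.

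**Figure D1:**
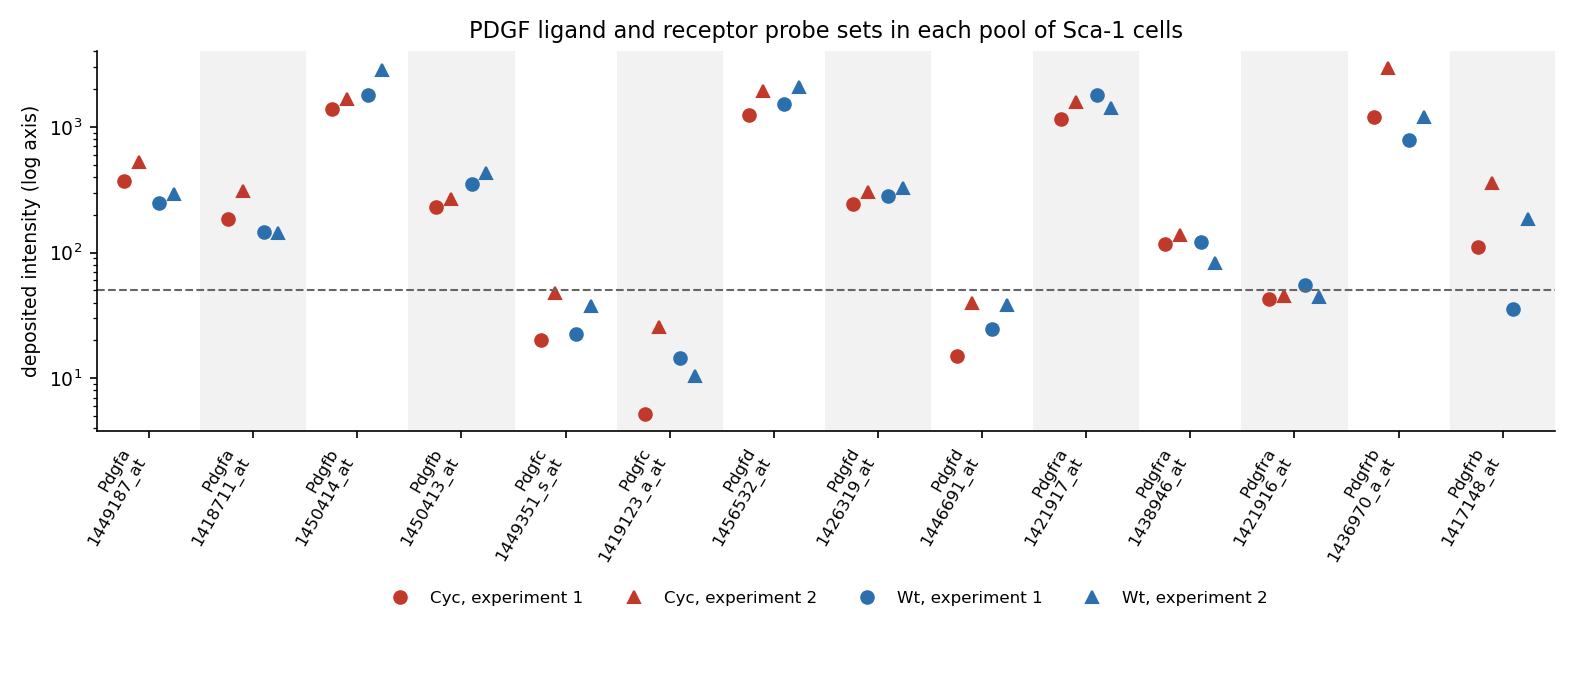
Deposited intensity (log axis) of the 14 probe sets of the family in each pool, with Cyc pools (red) left of Wt pools (blue). Circles stand for experiment 1 and triangles for experiment 2. The dashed line marks an intensity of 50, and both probe sets of Pdgfc lie below it in all 4 pools while those of Pdgfa and Pdgfb lie above it.

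Pdgfa, whose homodimer binds PDGFRα alone, was the ligand gene with the higher intensities in Cyc cells. Its probe set 1449187_at read 371.5 and 525.7 in the Cyc pools of experiments 1 and 2, and 246.4 and 293.4 in the Wt pools. The groups did not overlap, with means of 448.6 ± 109 in Cyc and 269.9 ± 33.2 in Wt cells (SD, n = 2 pools each). The log2 difference was 0.56 in experiment 1 and 0.81 in experiment 2, and the fitted value was 0.69 (95% confidence interval -0.05 to 1.42; limma, adjusted p = 1). The other Pdgfa probe set, 1418711_at, read 184.3 and 309.2 in Cyc cells, and 146.9 and 144.2 in Wt cells. Again the Cyc pools were the brighter ones, but the Cyc pool of experiment 2 stood well above the other pools. The log2 differences of 0.30 and 1.02 gave a fitted value of 0.66 with an interval from -0.17 to 1.49 (limma, adjusted p = 1). In the blocked fit the interval ran from 0.19 to 1.18 for 1449187_at and from 0.05 to 1.27 for 1418711_at (limma, adjusted p = 0.664 and adjusted p = 0.704), and both fitted values stayed under 2-fold. Without the Cyc pool of experiment 1, 1418711_at passed the thresholds at 1.01.

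Pdgfb, the ligand of both receptors that endothelial cells send to mural cells, ran the other way. At 1450414_at the intensity was 1397.1 and 1664.5 in the Cyc pools of experiments 1 and 2, and 1786.3 and 2829.0 in the Wt pools. Both Cyc pools lay below both Wt pools, and the Wt pool of experiment 2 was the brightest. Means were 1531 ± 189 in Cyc and 2308 ± 737 in Wt cells (SD, n = 2 pools each). The log2 difference was -0.35 in experiment 1 and -0.76 in experiment 2, with a fitted value of -0.56 and an interval from -1.39 to 0.28 (limma, adjusted p = 1). The dimmer 1450413_at read 229.3 and 266.7 in Cyc cells, and 352.2 and 431.5 in Wt cells, again with no overlap of the groups. Here the experiments were close to each other, at -0.59 and -0.66, and the fitted value was -0.62 with an interval from -1.27 to 0.03 (limma, adjusted p = 1). With the block the interval ran from -1.08 to -0.03 for 1450414_at and from -1.10 to -0.15 for 1450413_at (limma, adjusted p = 0.704 and adjusted p = 0.666). The fitted values amounted to less than 2-fold in both fits.

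The chains that are activated outside the cell showed smaller differences or no usable signal. Pdgfd, the gene of a PDGFRβ ligand, read 1238.0 and 1933.4 in Cyc cells, and 1523.0 and 2078.8 in Wt cells at 1456532_at. At 1426319_at it read 242.5 and 302.4 in Cyc cells, and 284.7 and 324.0 in Wt cells. The Cyc pool was the dimmer one in each experiment, but the groups overlapped at both probe sets, since the pools of experiment 2 were brighter than those of experiment 1 in both genotypes. The fitted values were -0.20 (interval from -1.08 to 0.68) and -0.16 (from -0.81 to 0.49). The sign of the first turned when single pools were left out, to 0.12 without the Cyc pool of experiment 1 and to 0.02 without the Wt pool of experiment 2. The third Pdgfd probe set, 1446691_at, stayed at 40.0 or less and was not tested. Pdgfc, which encodes a ligand of PDGFRα, read 20.1 and 47.9 in Cyc cells, and 22.4 and 37.9 in Wt cells at 1449351_s_at. At 1419123_a_at it read 5.2 and 25.7 in Cyc cells, and 14.4 and 10.4 in Wt cells. As neither probe set reached 50 in any pool, no fold change is given for Pdgfc, and a difference was not detectable at this signal.

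**Figure D2:**
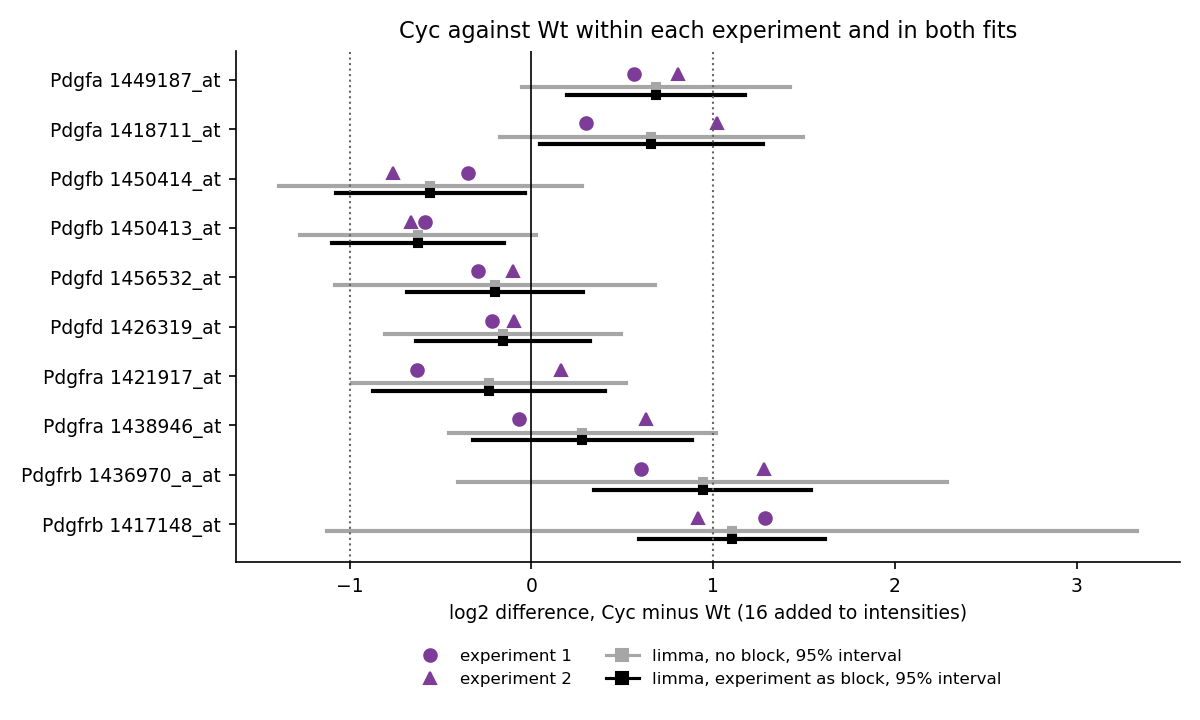
Log2 difference of Cyc minus Wt cells for the 10 tested probe sets, with circles for experiment 1, triangles for experiment 2, and squares with 95% intervals for limma without (grey) and with (black) the experiment as a block. Dotted lines mark 2-fold, all grey intervals cross 0, and the black intervals of both probe sets of Pdgfa, Pdgfb and Pdgfrb do not.

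Pdgfrb had the largest fitted differences of the family, and at both probe sets the Cyc pool was above the Wt pool of its experiment. The intensity of 1436970_a_at was 1202.3 and 2944.1 in the Cyc pools of experiments 1 and 2, and 785.0 and 1204.2 in the Wt pools. That of 1417148_at was 109.9 and 361.1 in Cyc cells, and 35.7 and 183.4 in Wt cells. The groups overlapped at both, at 1436970_a_at by the small gap between the Cyc pool of experiment 1 and the Wt pool of experiment 2, and the Wt pool of experiment 1 lay under 50 at 1417148_at. Means at 1436970_a_at were 2073 ± 1232 in Cyc and 995 ± 296 in Wt cells (SD, n = 2 pools each), so the SD of the Cyc pools was larger than the difference of the means.

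Within the experiments the log2 difference of Pdgfrb was 0.60 and 1.28 at 1436970_a_at, and 1.29 and 0.92 at 1417148_at. The fitted values without a block were 0.94 (interval from -0.40 to 2.29) and 1.10 (from -1.13 to 3.33; limma, adjusted p = 1 for both). These wide intervals go with a large step between the experiments. From experiment 1 to experiment 2, 1417148_at differed by 1.58 in Cyc and by 1.95 in Wt cells, and 1436970_a_at by 1.28 in Cyc and 0.61 in Wt cells, all higher in experiment 2, while the median over all tested probe sets was 0.38 in Cyc and 0.19 in Wt cells. In the fit with the experiment as a block the interval was 0.59 to 1.61 for 1417148_at, which passed both thresholds there (limma, adjusted p = 0.648). That call depends on the Wt pool of experiment 1, which was not above the edge of detection: with intensities under 50 set to 50 the blocked value was 0.93, and with a pseudocount of 50 it was 0.86, so 2-fold was missed. In experiment 1 itself the Cyc pool of 1417148_at was at least 2.20-fold higher, taken as its intensity over 50. It was 0.35 to 1.54 for 1436970_a_at, which missed 2-fold (limma, adjusted p = 0.663). Both receptor probe sets also passed without the Cyc pool of experiment 1, at 1.58 and 1.89 for 1436970_a_at and 1417148_at, and 1417148_at passed without the Wt pool of experiment 2, at 2.08. In the last of these the Wt pool left lay under 50, so that 1417148_at was at least 3.98-fold higher there, as the geometric mean of the Cyc pools over 50. Leaving out the Cyc pool of experiment 2 brought the values down to 0.30 and 0.31, and leaving out the Wt pool of experiment 1 gave 0.64 and 0.13. Each of these fits sets 1 experiment in a group against both in the other. Pdgfrb was also among the genes the study selected from these arrays, so its difference is not independent evidence.

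**Figure D3:**
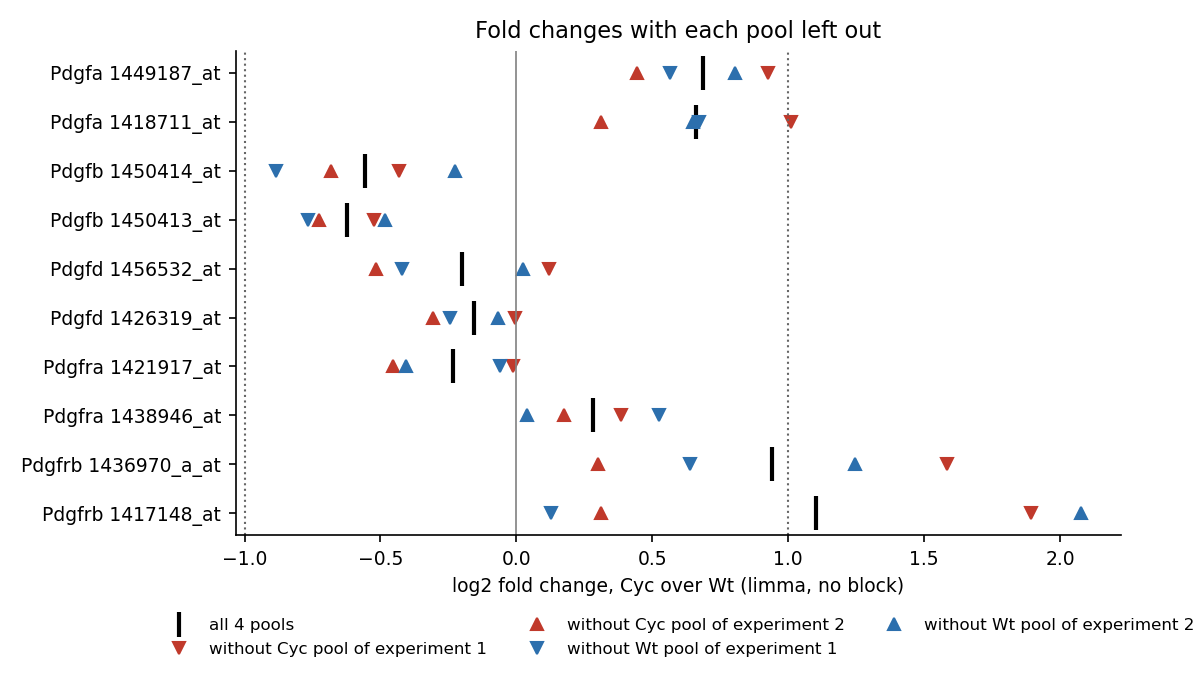
Log2 fold change of Cyc over Wt cells (limma, no block) for the 10 tested probe sets with all 4 pools (black bars) and without each pool in turn (triangles, red for a Cyc and blue for a Wt pool left out). The values of 1417148_at of Pdgfrb spread the widest, between 0.13 and 2.08, and those of Pdgfa and Pdgfb stay on their side of 0.

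Pdgfra, which is typical of cardiac fibroblasts and Sca-1-positive stromal cells, showed no shared direction. Its brightest probe set, 1421917_at, read 1160.0 and 1584.3 in the Cyc pools of experiments 1 and 2, and 1802.3 and 1414.4 in the Wt pools. The Cyc pool was thus the dimmest of the 4 in experiment 1 and was above the Wt pool in experiment 2. The log2 difference was -0.63 and 0.16, and the fitted value was -0.23 with an interval from -0.99 to 0.52 (limma, adjusted p = 1). At 1438946_at the intensity was 116.0 and 136.9 in Cyc cells, and 122.4 and 82.8 in Wt cells, a difference of 0.63 in experiment 2 and of -0.07 in experiment 1, a value smaller than the median shift of all tested probe sets there. Its fitted value of 0.28 had an interval from -0.45 to 1.02 (limma, adjusted p = 1), so neither probe set fixes a direction with 2 pools per group. The third, 1421916_at, reached 50 in 1 Wt pool alone, at 55.3, and was not tested.

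Within a pool, the log2 ratio of Pdgfrb to Pdgfra at their brightest probe sets was larger in Cyc than in Wt cells by 1.23 in experiment 1 and by 1.12 in experiment 2. The same difference for the ratio of Pdgfa to Pdgfb was 0.91 and 1.57. The ratio of Pdgfrb to Pdgfra depends on the probe sets chosen. Pdgfra differed in experiments 1 and 2 by -0.63 and 0.16 at 1421917_at, but by -0.07 and 0.63 at 1438946_at. Both ratios were formed after the values had been seen and were not tested.

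The pattern of each receptor over the 4 pools was set beside that of all other tested genes, by the root mean square distance between log2 values centred on their own mean. For Pdgfra, at 1421917_at, the nearest genes were Far1, an enzyme of ether lipid synthesis (distance 0.0134), Gpatch2, the nuclear pore gene Nup133, Zfp106 and Dnajc3, a cochaperone of the endoplasmic reticulum (0.0332). For Pdgfrb, at 1436970_a_at, they were Tfeb, a transcription factor of lysosomal genes (0.0385), Laptm5, the collagen gene Col4a4, Rasd1 and Tpm2, a muscle tropomyosin (0.114). Some of these genes were dim. Over the pools Gpatch2 read 37.5 to 65.9, Nup133 53.1 to 87.6 and Laptm5 28.3 to 136.0, around the edge of detection of 50. The study had also selected Col4a4 from these arrays. The distances rest on 4 pools and are a description.

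Downstream of the receptors, adaptors and kinases carry the signal. In a list of 39 genes of signal relay 31 were tested, and none passed the thresholds in limma with or without the block, where 0.735% of all tested were past them as higher and 0.116% as lower. The median log2 fold change was -0.08 (-0.12 and -0.06 in experiments 1 and 2), against -0.02 over all tested probe sets. The adaptor gene Crk was the brightest, at 1801.5 and 2805.7 in Cyc cells, and 1927.6 and 3237.8 in Wt cells. The adaptor gene Nck1 and Fyn, a kinase of the Src family, followed with log2 fold changes of -0.26 (standard error 0.22) and -0.06 (0.27). All 15 tested genes of 16 listed negative regulators also stayed within the thresholds, with a median of 0.03 (-0.09 and 0.07 in experiments 1 and 2). Dusp1, a phosphatase that switches off MAP kinases, read 10403.2 and 9975.9 in Cyc cells, and 10561.8 and 9482.5 in Wt cells. Ptpn12 and Dusp6, phosphatases as well, had log2 fold changes of -0.09 (standard error 0.28) and 0.08 (0.36).

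In a list of 13 genes that process or bind PDGFs 11 were tested. Pdgfrl was past the thresholds as higher in Cyc cells (0.735% of all tested) and none was lower (0.116%). Pdgfrl encodes a protein similar to the ligand-binding part of the receptors. Its intensity was 354.9 and 369.2 in the Cyc pools, and 187.3 and 80.9 in the Wt pools of experiments 1 and 2. The groups did not overlap, and the fitted difference was 1.43 on the log2 scale (standard error 0.41, limma, adjusted p = 1). The call was lost without the Wt pool of experiment 2, with no filter on dim probe sets and in a plain 2-group t test. The study had selected Pdgfrl from these same arrays. The median of the list was 0.10 (-0.04 in experiment 1 and 0.20 in experiment 2). Its brightest genes were Sparc, a matrix protein that binds PDGF-B (log2 fold change 0.14, standard error 0.25), Nrp1, a coreceptor (-0.09, 0.24), and Plat, a protease that activates PDGF-C (0.16, 0.25).

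Early response genes are switched on within minutes of receptor activation, and also by many other stimuli. In a list of 18 such genes 17 were tested. In both experiments 5 of them were higher and 4 lower in Cyc cells, against 26.1% and 29.1% of all tested. Among the lower ones were Egr3 and Hbegf, with log2 fold changes of -0.85 and -0.58 (standard errors 0.52 and 0.24). Egr2, a zinc finger transcription factor, was past the thresholds as higher in Cyc cells, as were 0.735% of all tested. It read 665.7 and 608.1 in Cyc cells, and 306.1 and 259.1 in Wt cells. Both Cyc pools were above both Wt pools, as for 15.1% of all tested (log2 fold change 1.13, standard error 0.24, limma, adjusted p = 1). Leaving out the Wt pool of experiment 2 ended the call. The median of the list was 0.06 (-0.06 in experiment 1 and 0.18 in experiment 2). Fos, Egr1 and Jun, the brightest, had log2 fold changes of 0.09, -0.03 and 0.06 (standard errors 0.26, 0.24 and 0.25). Of 7 genes of the other receptors of this kinase class and their ligands 4 were tested and none passed. Kit, the receptor of stem cell factor, read 383.6 and 618.9 in Cyc cells, and 215.3 and 447.7 in Wt cells. Kitl, the gene of that factor, and Csf1, the gene of a macrophage growth factor, had fitted differences of -0.31 each (standard errors 0.31 and 0.27), and the median of the 4 was 0.16 (-0.33 in experiment 1 and 0.24 in experiment 2).

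**Figure D4:**
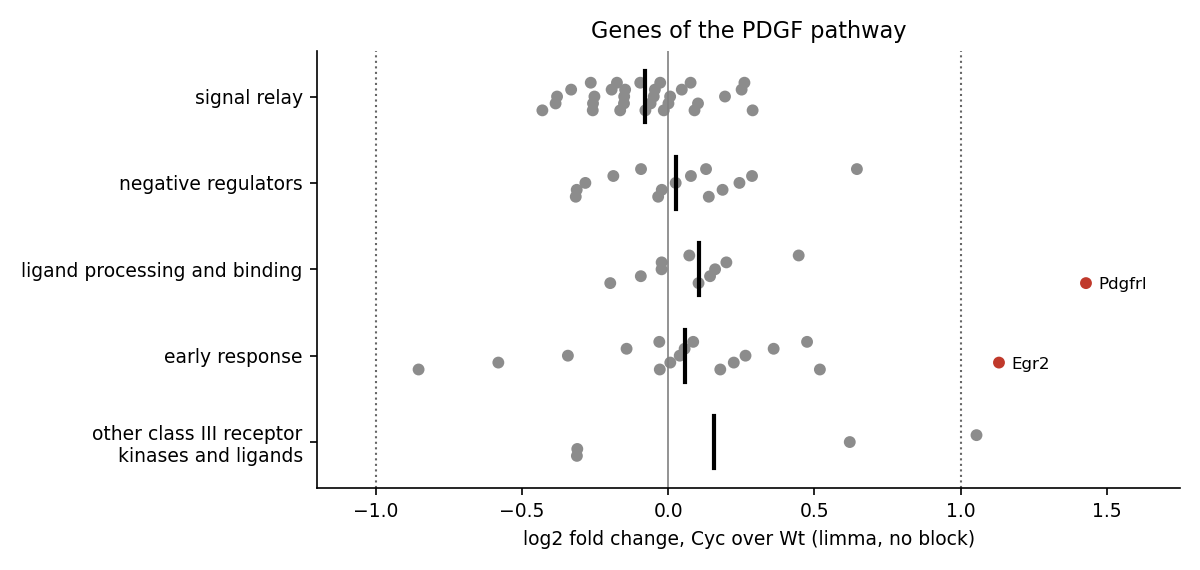
Log2 fold change of Cyc over Wt cells (limma, no block) of the tested genes in 5 lists of the PDGF pathway, each gene a point at its brightest probe set and each list's median a black bar. Dotted lines mark 2-fold, and the red points, Egr2 and Pdgfrl, are past both thresholds.

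Markers of the cells that typically carry PDGFRβ had higher values in Cyc cells together with Pdgfrb. All 8 tested pericyte markers of 10 were higher in the Cyc pool of both experiments, with a median log2 fold change of 0.61 (0.47 and 0.88 in experiments 1 and 2). Of all tested probe sets 26.1% were higher in both experiments. The 10 pericyte markers summed to 10022 and 14740 in the Cyc pools, and 8097 and 10357 in the Wt pools. Cyc pools were above Wt pools within each experiment, with an overlap across them. Past the thresholds as higher were 2 of the 8, against 0.735% of all tested, Kcnj8 and Abcc9, the subunit genes of a potassium channel of pericytes. Kcnj8 had a fitted difference of 1.16 (standard error 0.43), and Abcc9 read 840.1 and 1164.6 in Cyc cells, and 464.1 and 507.5 in Wt cells. Of 7 smooth muscle markers 5 were tested, 4 were higher in both experiments (26.1% of all tested) and none passed, with a median of 0.49 (0.16 and 0.69). Their sum was 6424 and 14106 in the Cyc pools, and 5470 and 8619 in the Wt pools. Cnn1, a contractile protein gene, lay below 0 in 3 of the 4 pools. The part of these markers in the Pdgfrb values was not tested.

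The 9 markers of fibroblasts, cells that typically carry PDGFRα, had a median of 0.44 and differed more in experiment 2 (0.76) than in experiment 1 (0.11). Col1a1, a collagen chain gene, was 1 of the 9 past the thresholds as higher in Cyc cells (0.735% of all tested). Its fitted difference was 1.16 (standard error 0.40). In both experiments 5 of the 9 were higher (26.1% of all tested) and 1, Dpt, was lower (29.1%). Dpt, Gsn and Dcn had fitted differences of -0.05, -0.11 and -0.006. The study had selected Abcc9 and Col1a1 from these arrays as well. The 9 fibroblast markers summed to 58087 and 55756 in the Cyc pools, and 59501 and 38726 in the Wt pools, so the Wt pool of experiment 2 stood apart as the lowest. Of the 10 markers of endothelium, a source of PDGF-B, none passed and 7 were lower in Cyc cells of both experiments, against 29.1% of all tested. Vwf, the gene of von Willebrand factor, was higher in both, by 0.44 and 0.94 (fitted difference 0.69, standard error 0.33), and Cldn5, a tight junction gene, had a fitted difference of 0.40. The median of the 10 endothelial markers was -0.15, and they summed to 47322 and 50881 in the Cyc pools, and 49267 and 53057 in the Wt pools. Platelets are another source of PDGF-A and PDGF-B, and their markers, of which 3 of 9 were tested and none passed, summed to 627 and 395 in the Cyc pools, and 576 and 535 in the Wt pools. Macrophage markers, of which 3 of 10 were tested and none passed, summed to 427 and 1174 in the Cyc pools, and 420 and 272 in the Wt pools, with C1qa and C1qc below 0 in all pools but the Cyc pool of experiment 2. The part of any of these in the ligand values was not tested.

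**Figure D5:**
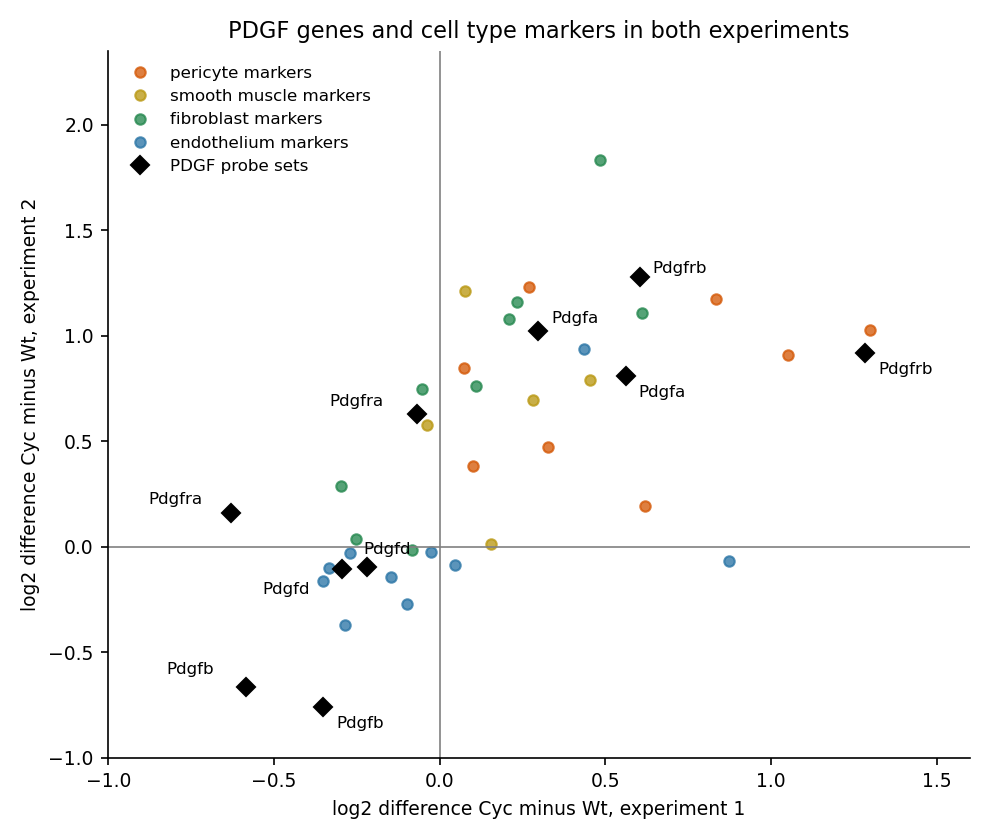
Log2 difference of Cyc minus Wt cells in experiment 1 (horizontal) and experiment 2 (vertical), with the 10 tested PDGF probe sets as black diamonds and the tested markers of 4 cell types as coloured points. Pdgfrb and Pdgfa lie in the upper right with all 8 pericyte markers, 5 fibroblast, 4 smooth muscle and 1 endothelial marker. Pdgfb and Pdgfd lie in the lower left with 7 endothelial markers and 1 fibroblast marker.

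The pools that were brightest in Pdgfrb within their genotype were those of experiment 2. Of these, the Cyc pool held the most airway transcript of the 4 pools and the Wt pool the least. When the pools with the least airway transcript were set against each other, the Cyc pool of experiment 1 against the Wt pool of experiment 2, the log2 difference of Pdgfrb was -0.002 at 1436970_a_at and -0.66 at 1417148_at. That of Pdgfb was -1.01 at 1450414_at and -0.87 at 1450413_at, and that of Pdgfa was 0.32 at 1449187_at. This comparison was chosen after the data had been seen, crosses the experiments and has no test, and the part of airway transcript in the values was not tested.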

How the data were processed

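RNA (250 ng per pool) was hybridised to Affymetrix Mouse 430 2.0 arrays. The deposited file holds 1 normalized intensity per probe set and pool on a linear scale, which the authors made in Rosetta Resolver; background correction and summary method are not given in the sources used here, and intensities can lie below 0. Those were set to 0, 16 was added, and log2 values were tested without a block in limma 3.58.1 (R 4.3.3), two-sided, over the 20680 probe sets at 50 or more on at least 2 arrays, with Benjamini-Hochberg adjustment over all of them. Thresholds were the study's, 2-fold and an unadjusted p under 0.05, without its error model. Platform annotation gave 34945 probe sets 1 symbol, 932 several and 9160 none; Ly6a was named from the study's supplement. List genes were taken at their brightest probe set.

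Poly-A controls separated the replicate numbers (medians 250.1 in Cyc and 213.9 in Wt pools of experiment 1, -1.14 in Cyc and 0.568 in Wt pools of experiment 2), and deviations of same-numbered pools correlated at 0.447, so the experiment was also fitted as a block. The number of arrays limits the precision. Members and lists were chosen with earlier results of these data known. Named were all family probe sets, the 3 brightest genes of each pathway list, those past the thresholds, and the 5 nearest patterns per receptor. The procedure was tested on simulated data. Alternatives were other pseudocounts, filters and scalings, the block, a variance trend, a plain 2-group t test, leaving out each pool, and, in lists, a gene's mean over its tested probe sets.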

Additional observations from a re-analysis of the deposited data

How the results depend on the processing

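The count of family probe sets past the thresholds was 0 without a block under other pseudocounts, filters, scalings, a variance trend and a plain 2-group t test. It was 1 with the replicate block, alone or together with quantile normalization (added once the values were known), but 0 with the block when a pseudocount of 50 was used or intensities under 50 were set to 50 (added likewise). It ran from 0 to 3 when each pool was left out. It was 3 without Cyc replicate 1 and 1 without Wt replicate 2. The fitted value of Pdgfd at 1456532_at ran from -0.52 to 0.12 with single pools left out and turned to 0.12 without Cyc replicate 1 and to 0.02 without Wt replicate 2. With quantile normalization, or with each array scaled to the same median, 3 of the 10 had an unadjusted p under 0.05. With no filter, and with a filter of 100, 1 did, 1450413_at of Pdgfb. Over the single probe sets and these alternatives, the direction and side of the thresholds held in 152 cases, 6 passed the thresholds newly and 2, those of Pdgfd, reversed. In the comparison of the pools with the least airway transcript, 8 of the 10 kept their sign and the 2 of Pdgfrb turned, while 7, these included, moved by more than the SD between experiments. That comparison crosses the experiments and takes in the step between them. With single pools left out the list medians ran from -0.29 to 0.10 for signal relay, from -0.14 to 0.20 for negative regulators, from -0.17 to 0.21 for ligand processing and binding, from -0.03 to 0.10 for early response and from -0.13 to 0.47 for the other receptors of the class and their ligands. The last was -0.31 with a filter of 100, and signal relay was -0.15 with a gene's mean over its probe sets. Low signal limits Pdgfc, 1446691_at of Pdgfd and 1421916_at of Pdgfra, and 2 pools per genotype limit the rest.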

Other observations

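Other cell types left traces in the pools. Of 11 cardiomyocyte markers 9 were tested, and 6 were lower in Cyc cells of both experiments, against 29.1% of all tested. Past the thresholds as lower (0.116% of all tested) were Myl2, a myosin light chain gene, and Mb, the gene of the oxygen store myoglobin. Their log2 fold changes were -1.15 (standard error 0.31) and -1.11 (0.41). Those of Myh6 and Ttn were 0.003 and -0.02. Myh7, not tested, read 35.2 and 61.4 in the Cyc pools and lay below 0 in the Wt pools. The study had selected Myl2 and Mb from these arrays as well. The cardiomyocyte list summed to 2411 and 2057 in the Cyc pools, and 3885 and 2458 in the Wt pools. Of 7 T and NK cell markers 2 were tested. Gzma, a granule protease of these cells, was past the thresholds as higher in Cyc cells, as were 0.735% of all tested. It was at least 2.69-fold higher, taken as the geometric mean of the Cyc pools over 50, since both Wt pools lay below 50. Cd3g, the other tested, differed by 0.65 in experiment 1 and -0.15 in experiment 2. Of the dim ones, not tested, Cd8a stayed at 25.1 or less. Cd3d lay under 50 in all pools but the Wt pool of experiment 2 (52.3). Nkg7 lay under 50 in all but the Cyc pool of experiment 2 (67.4). No direction is given for them at this signal. The study had selected Gzma from these arrays as well. The 6 mesothelial markers summed to 611 and 2262 in the Cyc pools, and 1245 and 682 in the Wt pools, and none passed. The 5 tested airway markers did not pass either, with log2 medians of -3.74 in experiment 1 and 6.04 in experiment 2. No B cell or adipocyte marker was bright enough to test, and the 1 tested Schwann cell marker and the 1 tested erythroid marker had log2 fold changes of 0.31 and -0.78.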
